A study of Mus musculus with 57 samples.

Results

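The axon guidance genes are the ligands and receptors of the ephrin, semaphorin, netrin and Slit systems. They were picked by symbol, with earlier results of these data known. The set covered ephrins and Eph receptors, semaphorins, plexins and neuropilins, netrins with Dcc, Neo1 and the Unc5 receptors, and Slits with their Robo receptors. Of the 12064 gene symbols in the deposited table of expressed genes, 44 belonged to this set, of which 23 were ligands and 21 receptors. These 44 symbols filled 45 of 12087 rows, because Sema3a had 2 rows for overlapping gene models. A gene had a row only where at least 2 cells exceeded RPKM 3, so guidance genes outside these 44 were not analysed here.

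The cells came from mouse kidneys at postnatal day 4 and were labelled as renal vesicle, the early epithelial ball from which each nephron grows. All mice carried the transgene Tg(Crym-EGFP)GF82Gsat, in which EGFP reports the activity of the Crym gene, on a mixed strain background. Kidneys were minced, digested and sorted by FACS, and 57 cells were taken on the Fluidigm C1 system, amplified with the SMARTer kit and sequenced from Nextera XT libraries, which keep no strand and carry no molecular identifiers. All 57 cells belonged to 1 pool of 2 kidneys and there was no control group, so cells are not replicates of a condition, and no p-value was computed.

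Guidance molecules were named for steering growing axons, and the same families set cell adhesion, repulsion and shape in many epithelia. Ephrins are membrane-bound ligands of Eph receptor tyrosine kinases: A-type ephrins are held by a lipid anchor and bind mainly EphA receptors, B-type ephrins cross the membrane, bind EphB receptors and EphA4, and can signal back into the cell that carries them. Semaphorins act through plexins, with neuropilins as co-receptors of the secreted class 3 members, while netrins act through Dcc, neogenin and Unc5 receptors and Slits through Robo receptors. In the young nephron, Wt1 marks the proximal end that gives rise to podocytes, and Sox9 and Pou3f3 mark the distal end.

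The labels and headers do not name each cell as proximal or distal, so cells were sorted by these markers at RPKM 20. RPKM scales reads by gene length and by the mapped reads of the cell, so levels of different genes can be set side by side. There were 34 Wt1-marked cells, without Sox9 or Pou3f3 at that level, and 12 Sox9/Pou3f3-marked cells without Wt1. Another 2 cells carried both kinds of marker and 4 carried neither. A further 5 cells with C1qb at RPKM 500 or more, a complement gene of macrophages, and at least 3 macrophage markers were macrophage-like and were set aside. The median level of Wt1 was RPKM 208 in the Wt1-marked cells and 1.49 in the Sox9/Pou3f3-marked cells. Near the boundary, between RPKM 10 and 40, lay 6 cells for Wt1, 4 for Sox9 and 3 for Pou3f3. Of the 12 Sox9/Pou3f3-marked cells, cells 32 and 33 were in the class only through Sox9 at 21.7 and 33.1. Cell 47 was in it only through Pou3f3 at 20.8. Pax8, a transcription factor of the nephron lineage, was below RPKM 5 in 1 Wt1-marked cell (cell 13), in no Sox9/Pou3f3-marked cell and in all 5 macrophage-like cells. The sum of 8 nephron genes had a median of 1177 in Wt1-marked, 1490 in Sox9/Pou3f3-marked and 17.9 in macrophage-like cells. Depth, estimated from the RPKM value of 1 read, ranged over the cells from 0.474 to 2.29 M reads, and its median was 1.48 M in Wt1-marked, 1.65 M in Sox9/Pou3f3-marked and 1.10 M in macrophage-like cells.

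Guidance genes differed between the marked classes in each direction, with ligands and receptors on each side. Higher in Wt1-marked cells were the ephrin-B ligands Efnb1 and Efnb2 and the receptors Unc5c and Plxnd1. Higher in Sox9/Pou3f3-marked cells were the ligand Efna5 and the receptors Epha4, Epha7 and Nrp1. These 8 members were the only ones whose mean log2(RPKM + 1) differed by 2 or more, 4 members (8.89% of 45 rows) in each direction. Over all 12087 genes that difference was reached by 0.935% in the direction of Wt1-marked cells and by 1.37% in the other. In the coordinates of the deposited table, which per the submitters' processing notes are on mm9, Efnb1 lies at chrX:96331469-96344330, Efnb2 at chr8:8617439-8660773, Unc5c at chr3:141128528-141497886 and Plxnd1 at chr6:115904829-115945023. Efna5 lies at chr17:62952306-63230666, Epha4 at chr1:77363760-77511663, Epha7 at chr4:28740295-28894649 and Nrp1 at chr8:130882973-131029375.

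**Figure D1:**
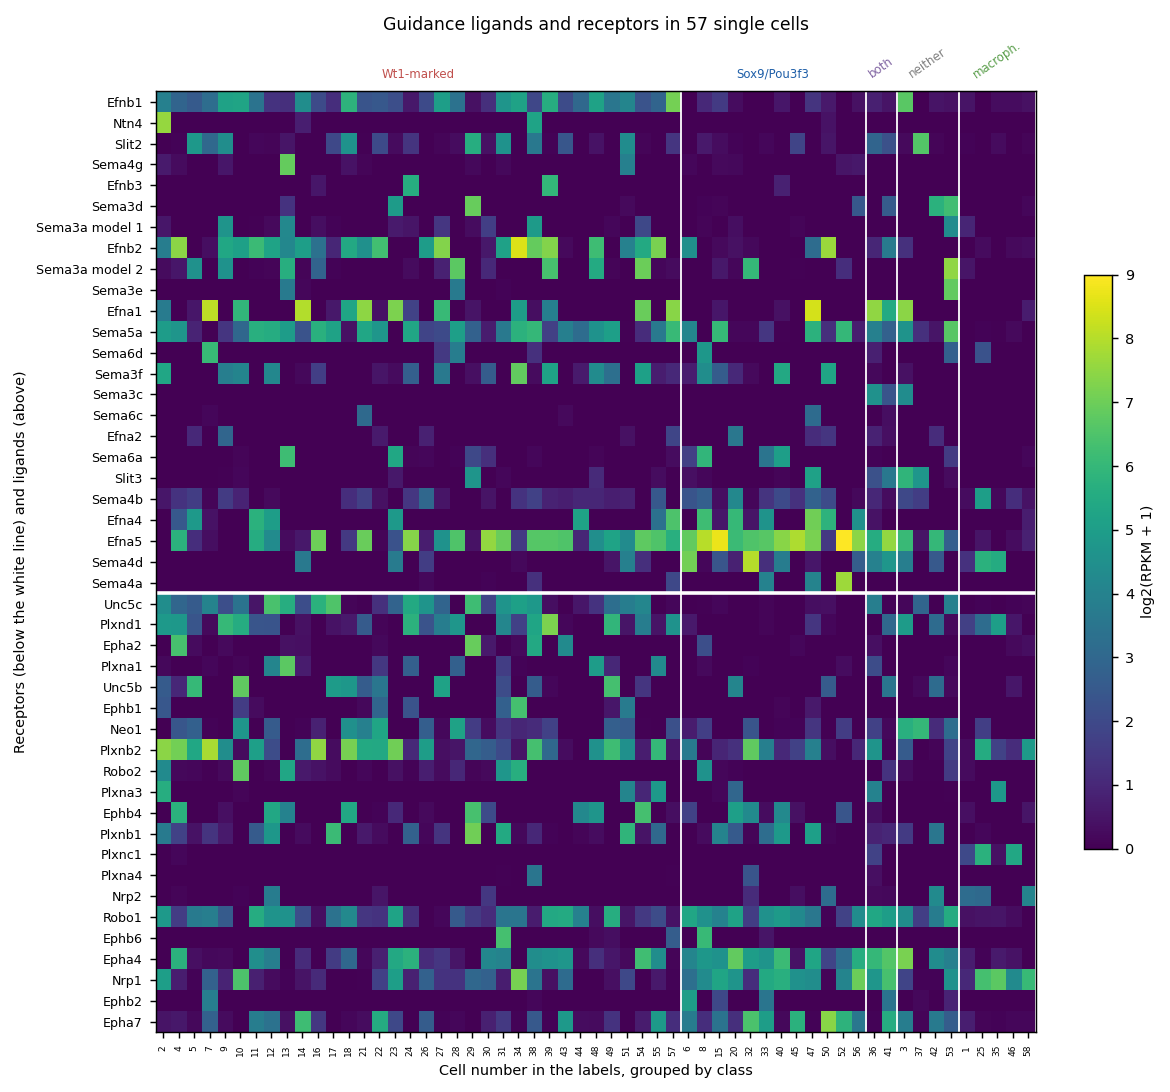
Level of each of the 45 rows (vertical, ligands above the white line and receptors below it) in each of the 57 cells (horizontal, grouped by marker class), coloured by log2(RPKM + 1). Efnb1 fills nearly all 34 Wt1-marked columns and Efna5 is at RPKM 1 or more in all 12 Sox9/Pou3f3-marked columns, while many rows are bright in a few cells only.

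Efnb1, an X-linked B-type ephrin, was the most widely detected guidance gene of the Wt1-marked cells. It was detected, meaning at RPKM 1 or more, in 32 of 34 Wt1-marked cells (94.1%, exact Clopper-Pearson 95% interval 80.3 to 99.3), with a lowest value of 0.322, a median of 6.89 and a highest of 139.7 in RPKM. In the 12 Sox9/Pou3f3-marked cells it was detected in 3, with a lowest value of 0, a median of 0.276 and a highest of 1.86. The classes overlapped little: 28 of 34 Wt1-marked cells lay above every Sox9/Pou3f3-marked cell. The mean was 17.4 ± 26.3 (SD, n = 34 cells) against 0.501 ± 0.649 (SD, n = 12 cells), a log2 ratio of means, each with 1 added, of 3.61. Across the 52 cells outside the macrophage-like class, Efnb1 and Wt1 had a Spearman rho of 0.65 (0.63 without cells 13 and 53, which carried stromal genes and almost no Pax8), a description of cells that share a pool and differ in depth, and Wt1 also defined the class. One cell outside both classes stood apart: cell 3, which carried neither Wt1 nor Sox9 nor Pou3f3, had Efnb1 at 101.6. When the classes were taken from longer marker lists, cell 3 joined the distal class and the log2 ratio of Efnb1 fell to 0.42, and without cell 3 it was 3.23.

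Efnb2, the other B-type ephrin ligand with values in many cells, had the higher median of the pair in Wt1-marked cells. It was detected in 22 of 34 Wt1-marked cells, with a lowest value of 0, a median of 26.0 and a highest of 370.9 in cell 34. It was detected in 3 of 12 Sox9/Pou3f3-marked cells, with a median of 0.0767, and 1 of these, cell 50, reached 198.1. That cell is the only Sox9/Pou3f3-marked one above the median of the Wt1-marked cells, and it sets the ratio: the log2 ratio of means was 1.36 with cell 50 and 3.79 without it. Efnb1 and Efnb2 were detected together in 24 of the 52 cells, with a rho of 0.49 (0.48 without cells 13 and 53). Efnb3 was detected in only 2 cells, both Wt1-marked.

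Unc5c, a receptor that mediates repulsion by netrin, showed the largest contrast in detection of all members. It was detected in 25 of 34 Wt1-marked cells (73.5%, exact interval 55.6 to 87.1), with a median of 6.64 and a highest value of 91.4 in RPKM. None of the 12 Sox9/Pou3f3-marked cells reached RPKM 1 (exact upper limit 26.5%), and their highest value was 0.294. No Sox9/Pou3f3-marked cell was above the Wt1-marked median, and 27 of 34 Wt1-marked cells were above every Sox9/Pou3f3-marked cell. The log2 ratio of means was 4.18. Unc5b, its paralog, was detected in 13 and 2 cells, with a log2 ratio of 2.14 that fell below 4-fold without cell 10 (1.73) and with classes from marker lists (1.58) and was 3.06 without cell 20. Neo1, the multifunctional netrin and repulsive guidance molecule receptor neogenin, was detected in 16 and 4 cells, with a log2 ratio of 1.73, which was 0.20 with classes from marker lists and 2.14 there without cell 3. Ntn4 was the only netrin ligand in the table and was detected in 2 cells, both Wt1-marked, so its log2 ratio of 2.90 rests mostly on cell 2 (1.05 without it). The summed netrin receptors averaged 34.7 ± 36.5 in Wt1-marked (SD, n = 34 cells) and 2.72 ± 4.58 in Sox9/Pou3f3-marked cells (SD, n = 12 cells).

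Plxnd1, a plexin that binds semaphorin 3E, was detected in 19 of 34 Wt1-marked cells, with a median of 3.94 and a highest value of 147.7, and in 1 of 12 Sox9/Pou3f3-marked cells at 1.62. The 19 Wt1-marked cells with Plxnd1 all lay above that cell, and the log2 ratio was 3.92. With classes from the longer marker lists it was 1.93, under 4-fold, and 2.93 when cell 3 (Plxnd1 29.8) was left out of them. Plxnd1 was also detected in 3 of 5 macrophage-like cells, up to 31.9. In the 52 cells Plxnd1 and Efnb1 had a rho of 0.55 and were both detected in 20, where both values of a cell come from the same library. Plxnb2, a receptor of class 4 semaphorins, was detected in 24 of 34 and 7 of 12 cells with medians of 14.4 and 1.22. Its log2 ratio was 1.66 and became 3.10 without cell 32, the Sox9/Pou3f3-marked cell with the highest Plxnb2 (111.3), whose Sox9 was 21.7 and so close to the marker level. With classes from the marker lists the Plxnb2 ratio was 3.90.

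Efna5, an A-type ephrin, had the highest level of all guidance genes in the Sox9/Pou3f3-marked cells. All 12 of these cells had it (exact lower limit 73.5%), from 1.85 in cell 50 through a median of 156.5 to 498.9 in cell 52. Among the 34 Wt1-marked cells it was detected in 23, with a lowest value of 0, a median of 20.1 and a highest of 185.6. The classes overlapped, yet 11 of 12 Sox9/Pou3f3-marked cells were above the Wt1-marked median, and 4 were above every Wt1-marked cell. The mean was 189.8 ± 145.6 (SD, n = 12 cells) against 46.3 ± 55.0 (SD, n = 34 cells), a log2 ratio of -2.01, or 4.03-fold higher in Sox9/Pou3f3-marked cells on the RPKM + 1 scale. Without cell 52 the log2 ratio was -1.78, just short of 4-fold.

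Epha4, a receptor for both A-type and B-type ephrins, was detected in 11 of 12 Sox9/Pou3f3-marked cells, with values from 0.370 through a median of 25.0 to 114.7. In Wt1-marked cells it was detected in 18 of 34, with a median of 1.15 and a highest value of 74.0. The ranges overlapped: 11 of 12 Sox9/Pou3f3-marked cells exceeded the Wt1-marked median, but only 1 exceeded every Wt1-marked cell, and the log2 ratio of means was -1.45. Epha7, an EphA receptor, was detected in 10 of 12 and 14 of 34 cells, with medians of 11.8 and 0.436, highest values of 168.0 and 72.4, and a log2 ratio of -2.27. Epha4 and its ligand Efna5 were detected together in 31 of the 52 cells with a rho of 0.57 (0.55 without cells 13 and 53), the highest among 325 pairs of named members. Efna5 and Unc5c, by contrast, had the lowest rho, -0.50 (-0.48 without cells 13 and 53). These coefficients describe single cells of 1 pool that share the class difference and their depth.

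Nrp1, the co-receptor of class 3 semaphorins and of vascular endothelial growth factor, was detected in 11 of 12 Sox9/Pou3f3-marked cells, with values from 0.0873 through a median of 21.4 to 124.7. It was detected in 15 of 34 Wt1-marked cells, with a median of 0.755 and a highest value of 140.9 in cell 34. The log2 ratio was -1.49, and it was -2.10 without cell 34 and -1.03 without cell 56, the Sox9/Pou3f3-marked cell with the highest Nrp1. Nrp1 was also present in all 5 macrophage-like cells, up to 106.0. The macrophage gene C1qb was at 129.3 in cell 56, and in cell 41, with Nrp1 at 82.4, it was at 38.0, and the part of such RNA in the Nrp1 values was not tested. Nrp1 is also a gene of blood vessels, so the endothelial list is set beside it. Of its 8 genes only 3 had rows (Egfl7, Tek and Flt1). Their sum had a median of 0 in both classes and reached 73.1 in Wt1-marked and 27.5 in Sox9/Pou3f3-marked cells. Without cells at RPKM 5 or more for these genes or for Col3a1 or Dcn, the Nrp1 ratio was -1.42. That setting was chosen after seeing the data, and the part of endothelial RNA in the Nrp1 values was not tested. Nrp2, the related co-receptor, was detected in 8 cells only, 3 of them macrophage-like.

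**Figure D2:**
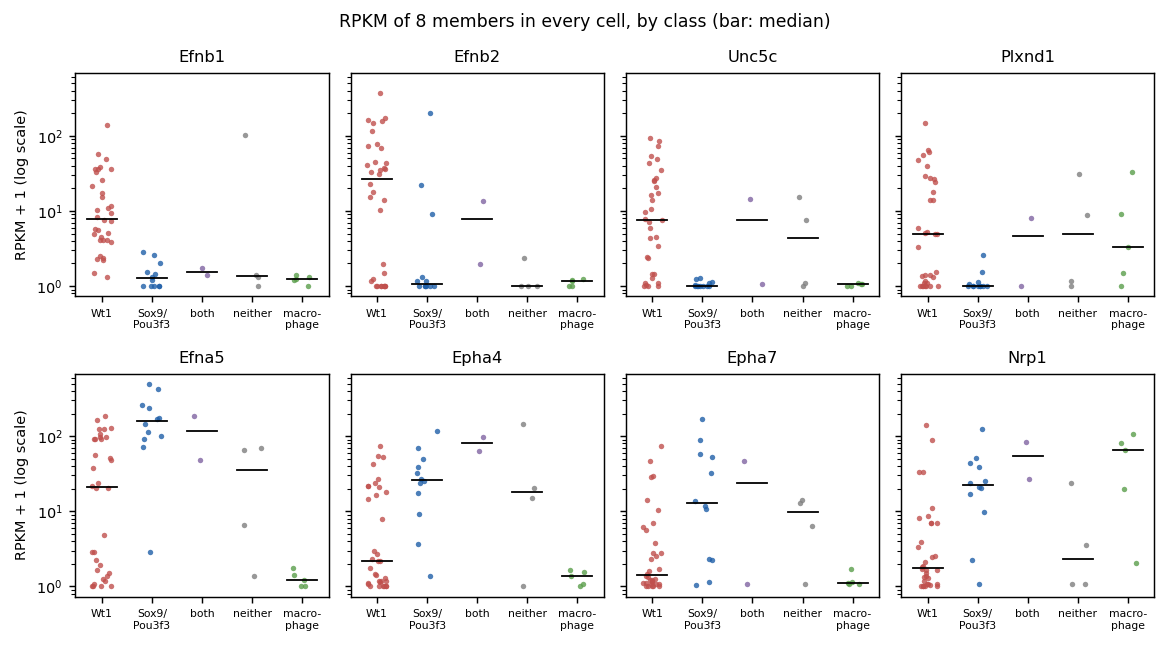
RPKM + 1 on a log scale for the 8 members whose mean log2 level differed by 2 or more, with 1 point per cell in each of 5 marker classes and a bar at the class median. The upper row holds members higher in Wt1-marked cells and the lower row members higher in Sox9/Pou3f3-marked cells, with cell 50 standing high in the Efnb2 panel and low in the Efna5 panel.

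The promoters of the 8 members whose mean log2 level differed by 2 or more are shown, because these genes carry the comparison. Each sequence is the 250 bases before the annotated start from RefSeq on build GRCm38.p6, read 5′ to 3′ along the gene, and capitals mark a match to GTGGGAG, a motif of Wt1, or to ACAANG, a motif of Sox factors, searched on both strands. On the Wt1-marked side, Efnb1 lies at chrX:99135811-99136060 (plus strand), Efnb2 at chr8:8661243-8661492 (minus strand), Unc5c at chr3:141465314-141465563 (plus strand) and Plxnd1 at chr6:115995006-115995255 (minus strand). On the Sox9/Pou3f3-marked side, Efna5 lies at chr17:62881318-62881567 (minus strand), Epha4 at chr1:77515089-77515338 (minus strand), Epha7 at chr4:28812881-28813130 (plus strand) and Nrp1 at chr8:128358823-128359072 (plus strand). Epha7 has 2 listed starts, of which the first is shown.
Efnb1: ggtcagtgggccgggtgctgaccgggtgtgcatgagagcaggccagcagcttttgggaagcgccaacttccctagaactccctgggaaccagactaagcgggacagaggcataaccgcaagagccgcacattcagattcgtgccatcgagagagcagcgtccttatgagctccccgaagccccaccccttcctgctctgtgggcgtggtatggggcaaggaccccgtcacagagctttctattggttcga
Efnb2: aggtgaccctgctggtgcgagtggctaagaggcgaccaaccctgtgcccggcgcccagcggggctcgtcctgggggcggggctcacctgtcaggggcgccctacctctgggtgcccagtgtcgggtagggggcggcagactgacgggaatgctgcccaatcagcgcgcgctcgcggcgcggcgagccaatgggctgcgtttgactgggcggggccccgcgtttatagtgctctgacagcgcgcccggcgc
Unc5c: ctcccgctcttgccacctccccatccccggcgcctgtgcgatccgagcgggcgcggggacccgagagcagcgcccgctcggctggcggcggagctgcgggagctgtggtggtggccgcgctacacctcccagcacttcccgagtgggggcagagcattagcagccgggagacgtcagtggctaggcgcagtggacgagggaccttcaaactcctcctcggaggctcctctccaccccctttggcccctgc
Plxnd1: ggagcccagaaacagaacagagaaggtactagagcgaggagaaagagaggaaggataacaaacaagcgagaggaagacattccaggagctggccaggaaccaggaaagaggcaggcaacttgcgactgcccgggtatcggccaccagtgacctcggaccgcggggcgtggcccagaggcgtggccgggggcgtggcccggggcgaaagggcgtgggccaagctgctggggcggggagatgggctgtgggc
Efna5: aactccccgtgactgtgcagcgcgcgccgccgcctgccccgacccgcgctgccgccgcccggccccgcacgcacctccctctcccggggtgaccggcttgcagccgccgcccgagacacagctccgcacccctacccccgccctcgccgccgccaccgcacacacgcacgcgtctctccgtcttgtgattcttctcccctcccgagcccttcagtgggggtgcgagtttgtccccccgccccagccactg
Epha4: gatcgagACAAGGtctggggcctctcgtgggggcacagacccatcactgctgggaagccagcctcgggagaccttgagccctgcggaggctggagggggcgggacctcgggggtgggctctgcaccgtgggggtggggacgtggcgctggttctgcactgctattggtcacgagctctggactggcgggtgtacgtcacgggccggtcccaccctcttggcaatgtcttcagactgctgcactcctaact
Epha7: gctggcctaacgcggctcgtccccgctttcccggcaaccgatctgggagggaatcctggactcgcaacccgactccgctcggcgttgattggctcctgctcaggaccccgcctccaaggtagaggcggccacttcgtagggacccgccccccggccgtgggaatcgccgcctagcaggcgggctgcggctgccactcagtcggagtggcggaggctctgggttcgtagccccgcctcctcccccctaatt
Nrp1: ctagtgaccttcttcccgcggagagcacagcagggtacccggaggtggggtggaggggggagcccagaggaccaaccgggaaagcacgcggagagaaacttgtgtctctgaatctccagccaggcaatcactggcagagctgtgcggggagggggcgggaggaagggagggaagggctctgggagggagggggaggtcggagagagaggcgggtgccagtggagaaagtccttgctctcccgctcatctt

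Of these 8 windows only that of Epha4 held a match, 1 copy of ACAANG. Of the 44 symbols, 39 had a promoter in the RefSeq table, and 7 of these (17.9%) held GTGGGAG against 7.99% of all 27025 promoters of that length. The 7 were Ephb1, Plxnb2, Robo2, Sema3e, Sema4b, Sema4g and Sema6d, of which Sema4b was detected in more of the Sox9/Pou3f3-marked cells. ACAANG was found in 11 of 39 (28.2%) against 36.6% of all promoters. The 11 were Efna2, Efna4, Epha4, Ephb1, Ntn4, Plxnc1, Sema3a, Sema3d, Sema3e, Sema4a and Sema4d. Among them, Ephb1 and Ntn4 were 4-fold higher in Wt1-marked cells, and Sema4a and Sema4d 4-fold lower. The member promoters were richer in G and C, with a median of 66.8% against 52.0%, and the part of base composition in these shares was not tested. A match describes letters and is not a binding site.

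Counted at 4-fold in the ratio of class means, 10 of 45 rows were higher in Wt1-marked cells (22.2%), where 11.5% of all 12087 genes were. A further 4 rows were lower (8.89%), where 5.18% of all genes were. The median log2 ratio of the members was 0.48 against 0.18 over all genes, and the median absolute log2 ratio was 1.49 against 0.79. Of 21 receptors 6 were higher, 1 was lower and the others passed in neither direction, while of 24 ligand rows 4 were higher and 3 lower. The 10 higher rows were Unc5c, Plxnd1, Efnb1, Ntn4, Epha2, Plxna1, Slit2, Sema4g, Unc5b and Ephb1, and the 4 lower rows were Sema4a, Sema4d, Epha7 and Efna5. Several of these ratios lean on 1 cell: without cell 10 Unc5b was at 1.73 in log2, without cell 50 Epha7 at -1.71, without cell 2 Ntn4 at 1.05 and without cell 32 Sema4d at -2.80. Likewise, without cell 29 Epha2 was at 2.06, without cell 13 Plxna1 was at 1.74 and Sema4g at 0.42, without cell 34 Ephb1 was at 0.99, and without cell 52 Sema4a was at -1.73. Cell 13 is the Wt1-marked cell with Pax8 at 0.744, and its Col3a1 of 230.6 and Dcn of 349.2 are stromal genes.

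Detection gives less weight to single high cells. By the share of cells, 5 rows (11.1%) were detected in at least 30 percentage points more of the Wt1-marked cells, against 2.41% of all genes, and 6 rows (13.3%) in at least 30 points less, against 2.94% of all genes. The 5 were Unc5c, Efnb1, Plxnd1, Efnb2 and Sema5a, and the 6 were Nrp1, Epha7, Epha4, Sema4b, Sema4d and Efna5. Of these 11 rows, 5 were receptors (Unc5c, Plxnd1, Nrp1, Epha7 and Epha4) and 6 ligands.

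**Figure D3:**
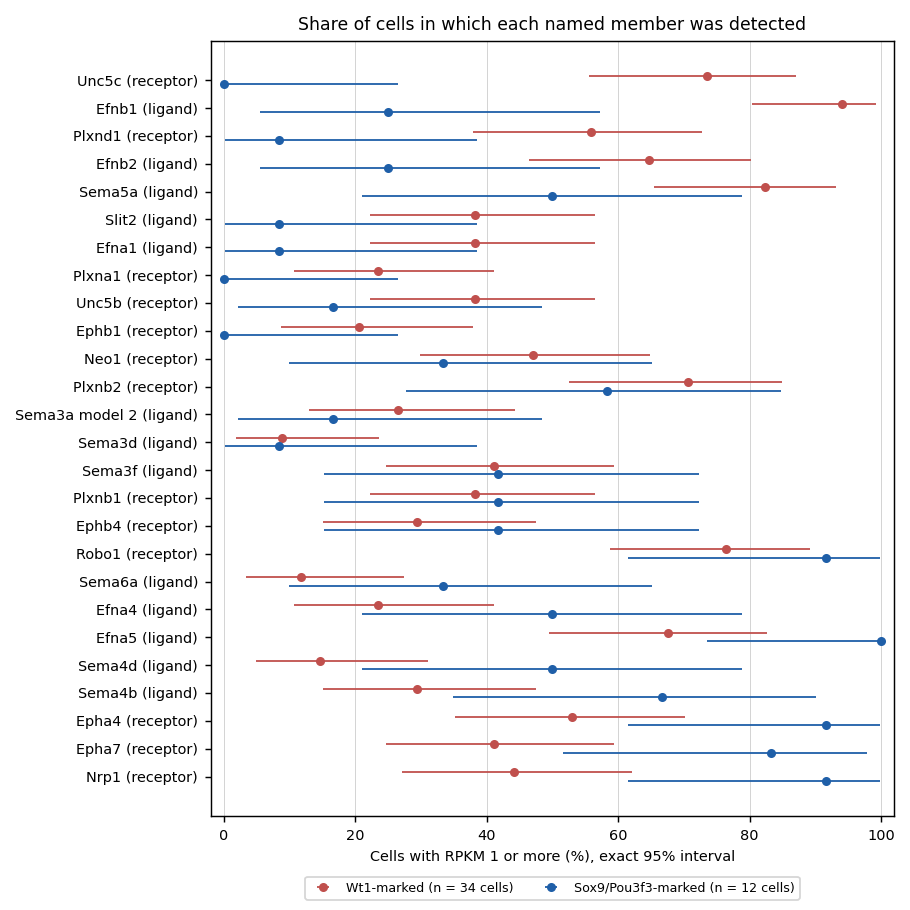
Share of cells at RPKM 1 or more (horizontal, percent) for 26 named members in the 34 Wt1-marked and the 12 Sox9/Pou3f3-marked cells, with exact 95% intervals that reflect only how cells were drawn from the pool. Intervals of the 2 classes are apart for Unc5c and Efnb1, and overlap for the other members.

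Of the class 4 semaphorins, Sema4a was detected in 3 of 12 Sox9/Pou3f3-marked and 2 of 34 Wt1-marked cells, and Sema4g in 0 and 2. Sema4d and Sema4b, like Sema4a, were detected in a larger share of the Sox9/Pou3f3-marked cells. Sema4d, a ligand of plexin-B1, was detected in 6 of 12 of these cells, with a median of 1.03 and highest values of 256.5 in cell 32 and 135.1 in cell 6. In Wt1-marked cells it was detected in 5 of 34 with a highest value of 14.1. The log2 ratio was -4.00, and -2.80 without cell 32. Sema4d is also an immune semaphorin, and 3 of 5 macrophage-like cells had it, up to 53.1. The 9 macrophage genes summed to a median of 2.66 in Wt1-marked and 2.81 in Sox9/Pou3f3-marked cells, against 14096 in the macrophage-like cells, but reached 219.3 and 180.4 in single cells of these classes. In cell 56, the cell with 180.4, Sema4d was at 5.26, and in cell 41, with C1qb at 38.0, it was at 25.6, and the part of macrophage RNA in these values was not tested. Sema4b, of the same class, was low everywhere, detected in 8 of 12 and 10 of 34 cells with a log2 ratio of -1.20. Its highest value, 32.1, was in a macrophage-like cell.

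Sema5a, a transmembrane semaphorin, was among the most often detected ligands. It was found in 28 of 34 Wt1-marked cells with a median of 12.7, and in 6 of 12 Sox9/Pou3f3-marked cells with a median of 0.991. The class means were closer, with a log2 ratio of 0.31, because 4 of the Sox9/Pou3f3-marked cells (15, 52, 47 and 6) held 65.0, 62.8, 53.5 and 16.7. Sema3f was detected in 14 of 34 and 5 of 12 cells, with a log2 ratio of 0.08. Its class mate Sema3a had 6 and 0 cells in its first gene model, with a log2 ratio of 1.69. The second gene model had 9 and 2 cells, with a log2 ratio of 1.18 that was 3.62 without cell 32. Reads of the overlapping Sema3a models cannot be told apart here. Sema3d was detected in 3 and 1 cells, and its log2 ratio of 1.96 rests on cell 29 (0.48 without it). Sema6a was detected in 4 cells of each class, with a log2 ratio of -1.11 that was -0.16 without cell 8. Sema3c was at 0 in every cell of both classes, and its 3 cells were 2 with both kinds of marker and 1 with neither.

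Slit2, a secreted repellent, was detected in 13 of 34 Wt1-marked and 1 of 12 Sox9/Pou3f3-marked cells, with a log2 ratio of 2.33, and its highest value of 95.7 was in cell 37, which carried neither marker. Robo1, its receptor, was the guidance gene detected in most cells, 43 of 57. It was found in 26 of 34 Wt1-marked cells with a median of 4.11 and in 11 of 12 Sox9/Pou3f3-marked cells with a median of 19.1, and the classes overlapped, with a log2 ratio of -0.55. Robo1 was not detected in any of the 5 macrophage-like cells, nor were Efnb1, Efnb2, Unc5c, Efna5, Epha4 and Epha7. Among the other ephrins and Eph receptors, Efna1 was detected in 13 of 34 Wt1-marked cells and in 1 Sox9/Pou3f3-marked cell, cell 47, whose 342.4 was the highest value of the gene. The log2 ratio of Efna1 was 0.48 with that cell and 5.27 without it, and Pou3f3 in that cell was 20.8, close to the marker level. Efna4 was detected in 8 of 34 and 6 of 12 cells, with a log2 ratio of -1.79, and its gene and Efna1 lie 52442 bases apart on chromosome 3 (mm9). Ephb4 and Plxnb1 had log2 ratios of 0.64 and 0.50, and both changed sign under other settings.

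The members outside the named genes were sparse. The 19 other rows were each detected in at most 9 cells, and for 14 of them leaving out 1 cell moved the ratio of class means by over 1.5 times. Ntn4, Epha2, Sema4g and Sema4a, which passed 4-fold, are among the 14. Plxnc1, the plexin of the immune semaphorin Sema7a, was detected in 4 cells, of which 3 were macrophage-like and 1 carried both kinds of marker.

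The authors' deposited table of proximal against distal cells listed 14 guidance genes among its 787. Of these, 7 (15.6%) were listed as higher in proximal cells, where the table listed 3.61% of all genes, and 7 (15.6%) as higher in distal cells, where it listed 2.90%. In the authors' deposited table the folds toward proximal were 34.5 for Unc5c, 24.9 for Efnb2, 13.2 for Efnb1, 12.3 for Plxnb2, 10.2 for Plxnd1, 9.14 for Slit2 and 6.84 for Sema5a. Toward distal, the authors' deposited table gave -11.8 for Sema4d, -11.1 for Nrp1, -8.58 for Epha7, -7.80 for Sema6a, -7.24 for Epha4, -6.64 for Efna5 and -3.38 for Sema3d. Of the 14 genes, only Sema3d had the opposite sign in the marker classes. Its log2 ratio there was 1.96, and without cell 29, which is not in the authors' table, it was 0.48 and still positive. Sema3d was at 29.7 in cell 23, a Wt1-marked cell near the marker level (Wt1 21.5, Sox9 14.7). It was at 52.7 in cell 42, which carried neither marker and so was not in the ratio. Both cells are in the authors' table, and their part in the difference was not tested. The 28 cells of that table included 17 of the Wt1-marked and 10 of the Sox9/Pou3f3-marked cells, so the comparisons share cells and their likeness is not independent support. Per cell, Wt1-marked cells expressed a median of 5 of the 7 proximal members (range 2 to 7) and 2 of the 7 distal ones (range 0 to 7). Sox9/Pou3f3-marked cells expressed a median of 1.5 proximal members (range 0 to 5) and 5 distal ones (range 3 to 6). Because the 14 genes were listed for differing in cells shared with these classes, this contrast is in part built in.

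**Figure D4:**
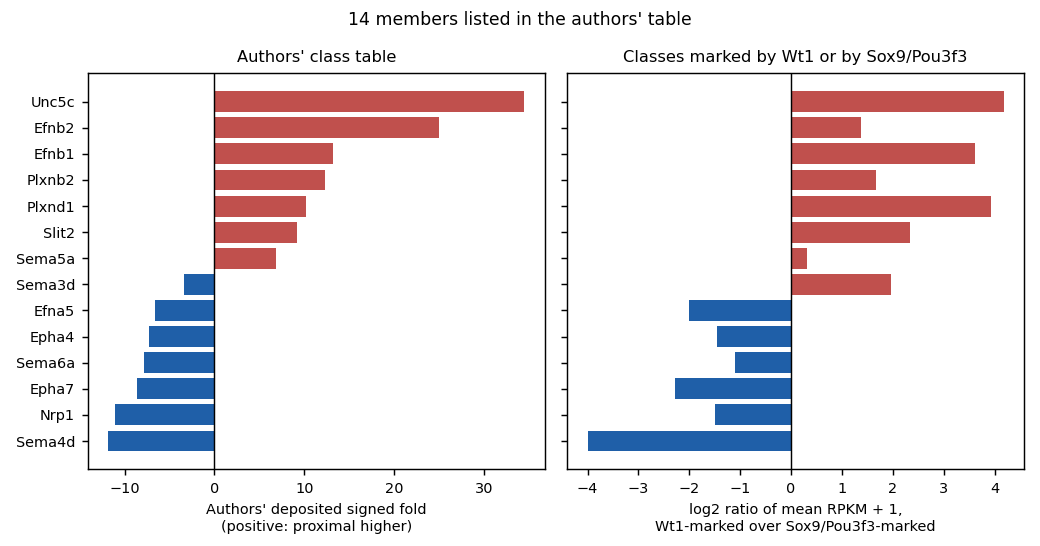
The 14 members of the authors' deposited table, with the authors' signed fold on the left (positive where proximal cells were higher) and the log2 ratio of the mean RPKM + 1 of Wt1-marked over Sox9/Pou3f3-marked cells on the right. The sign is the same for all but Sema3d.

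Ligand and receptor sides were then compared within cells. Summed over all ligands, the level was a median of 223.2 in Wt1-marked cells (range 41.5 to 608.5) and 296.9 in Sox9/Pou3f3-marked cells (range 153.6 to 767.1). Summed over all receptors it was 180.0 (range 33.1 to 425.3) and 159.2 (range 89.0 to 261.5). These ranges overlapped on both sides, and the log2 ratios of the means were -0.62 for ligands and 0.22 for receptors. The ligand difference came from Efna5: without it the ligands averaged 197.1 ± 137.0 in Wt1-marked (SD, n = 34 cells) and 184.4 ± 168.4 in Sox9/Pou3f3-marked cells (SD, n = 12 cells).

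By family, all 12 Sox9/Pou3f3-marked cells held an A-type ephrin together with an EphA receptor (exact lower limit 73.5%), against 20 of 34 Wt1-marked cells (58.8%, exact interval 40.7 to 75.4). The order was reversed for B-type ephrins with EphB receptors or Epha4, where 27 of 34 Wt1-marked cells (79.4%, exact interval 62.1 to 91.3) and 5 of 12 Sox9/Pou3f3-marked cells (41.7%, exact interval 15.2 to 72.3) held both sides. In that family B-type ligands averaged 71.1 ± 87.6 in Wt1-marked (SD, n = 34 cells) and 19.6 ± 56.7 in Sox9/Pou3f3-marked cells (SD, n = 12 cells), while their receptors averaged 28.5 ± 37.1 and 49.2 ± 42.3. Without cell 50 the B-type ligands averaged 3.30 ± 6.60 in the Sox9/Pou3f3-marked cells (SD, n = 11 cells). The receptor difference came from Epha4, since the EphB receptors alone averaged 16.9 ± 27.5 and 15.7 ± 20.1. Of the Sox9/Pou3f3-marked cells, 6 of 12 held the receptor without the ligand, against 1 of 34 Wt1-marked cells. All 12 Sox9/Pou3f3-marked cells held a class 4 semaphorin. Class 4 semaphorins with plexin-B were found together in 8 of 12 and 12 of 34 cells, and 14 Wt1-marked cells but no Sox9/Pou3f3-marked cell held plexin-B alone. Class 5 or 6 semaphorins met a plexin-A in 10 of 34 Wt1-marked and 0 of 12 Sox9/Pou3f3-marked cells (exact upper limit 26.5%). Slit with Robo was found in 10 of 34 and 2 of 12 cells. Class 3 semaphorins with a neuropilin, plexin-A or Plxnd1 were found in 20 of 34 and 8 of 12. Netrin with a receptor was found in 2 of 34 and 0 of 12. Among the 5 macrophage-like cells, a ligand and a receptor met only for class 4 semaphorins, in 3 cells. Transcripts in the same cell say nothing of the protein on neighbouring cells.

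**Figure D5:**
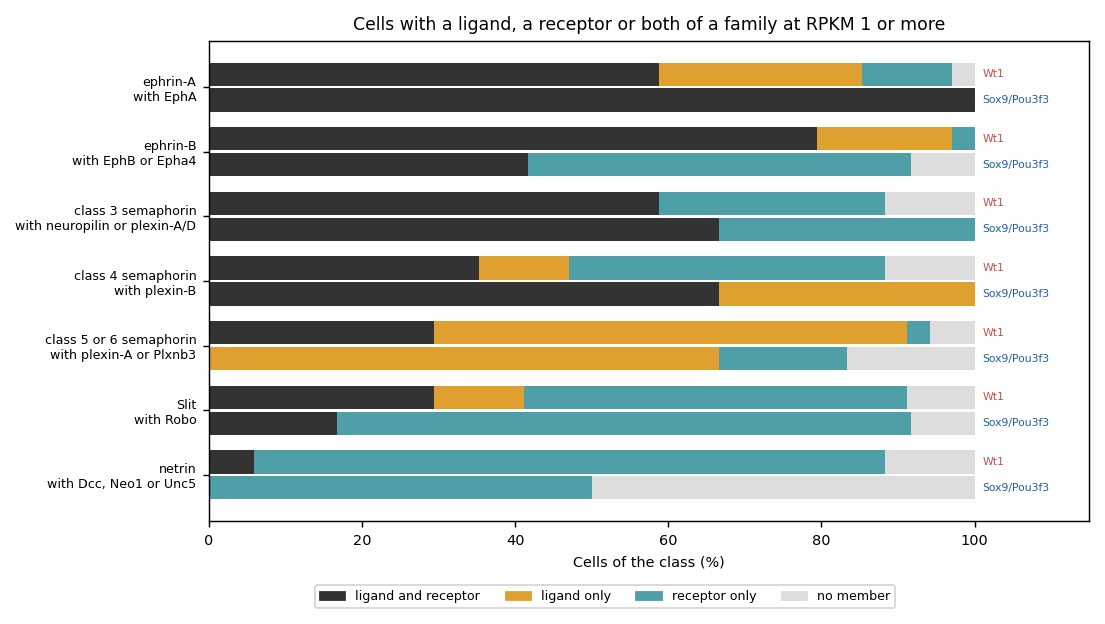
Percent of Wt1-marked (upper bar of each pair, 34 cells) and Sox9/Pou3f3-marked cells (lower bar, 12 cells) that held at RPKM 1 or more a ligand and a receptor of a family, only 1 of these sides, or none. Ephrin-A with EphA fills the whole lower bar, and ephrin-B with its receptors is the larger share in the upper bar.

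Some cells, picked after their values were seen, departed from this pattern. Cell 50, placed in the Sox9/Pou3f3-marked class by Pou3f3 at 66.5, had Efnb2 at 198.1 and Epha7 at 168.0 but Efna5 at 1.85, Nrp1 at 0.0873 and no detected Robo1. The 2 cells with both kinds of marker held guidance genes of each side: cell 36 had Unc5c at 13.3 beside Epha4 at 62.5, and cell 41 had Efnb2 at 12.5 beside Efna5 at 186.3 and Nrp1 at 82.4. Cells 36 and 41 had 5419 and 6502 genes at RPKM 1 or more. The medians were 4307 in Wt1-marked and 4329.5 in Sox9/Pou3f3-marked cells, and the part of this wider detection in their guidance genes was not tested. Cell 3, with none of the class markers but Pax8 at 386.7, held the highest Epha4 of all cells (143.7) together with Efnb1 at 101.6. Its Egfl7, an endothelial gene, was at 39.2, with Tek and Flt1 at 0. Cell 53, also with none of the class markers, had Pax8 at 0.437 and 7 detected stromal markers with Col3a1 at 122.7. It held the highest values of Sema3a (179.8 in the second model), Sema3e (113.3) and Sema5a (100.9), beside Sema3d at 75.0.

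Genes tied to these families were counted from lists, which hold surface molecules and transcription factors as well as genes that act behind the receptors. Of 71 rows on lists of ephrin, semaphorin, Slit, netrin and actin signalling, 10 were 4-fold higher in Wt1-marked cells and 2 lower, beside 11.5% and 5.18% of all genes. By list, the higher rows were 0 of 16 for ephrin, 3 of 18 for semaphorin, 4 of 13 for Slit, 2 of 11 for netrin and 1 of 13 for actin signalling. Those for Slit were Sdc1, Foxc2, Sdc3 (detected in 4 Wt1-marked cells) and Srgap3 (5 Wt1-marked cells). The lower rows were Yes1, a Src-family kinase, with a log2 ratio of -2.62, and Flrt3, an Unc5-binding adhesion molecule, with -3.18. Without cell 56 Yes1 was at -1.82, and without cell 52, where Flrt3 was at 493.0, Flrt3 was at -0.12. Sdc1, a heparan sulfate proteoglycan, had a log2 ratio of 4.67 and was detected in 18 of 34 and 1 of 12 cells. Foxc2, a forkhead factor of the Slit list, had 3.23 and was detected in 22 and 2 cells, and Flrt2, another Unc5-binding adhesion molecule, had 2.30 with 12 and 1 cells (1.67 without cell 30, 4.67 without cell 50). Foxc2 was at 4.79 without cell 52. Of the genes shared by many pathways, Dpysl2, a collapsin response mediator, and Cfl1, cofilin, were detected in all 57 cells with log2 ratios of -0.13 and -0.37. Yes1, Flrt3, Dpysl2 and Cfl1 were picked for mention after their values were seen.

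Markers of other cell types were set beside these values. Of 10 stromal genes 9 had rows, 4 were 4-fold higher in Wt1-marked cells and 1 lower, beside 11.5% and 5.18% of all genes. Of the 4, Col3a1, Pdgfra and Dcn were detected in only 4, 2 and 2 Wt1-marked cells. The lower row, Fibin, was detected in 2 Sox9/Pou3f3-marked cells. Meis1 stood out with a log2 ratio of 4.63 (13 of 34 and 1 of 12 cells). The stromal sum had a median of 102.4 in Wt1-marked cells (range 0.233 to 1782) and 136.1 in Sox9/Pou3f3-marked cells (range 0.161 to 288.4). Aldh1a2 made the most of that sum, with means of 152.5 and 111.3, and was detected in 18 of 34 and 10 of 12 cells. Dcn was detected in 2 of 34 Wt1-marked cells and was at 0 in every Sox9/Pou3f3-marked cell. Leaving out the cells with Col3a1, Dcn, Flt1, Tek or Egfl7 at RPKM 5 or more kept 29 and 9 cells, and there the log2 ratios were 3.65 for Efnb1, 4.05 for Unc5c, 3.89 for Plxnd1 and -2.01 for Efna5. In the same cells Unc5b was at 1.58 and Plxna1 at 1.79, both under 4-fold, and Sema3d was at 0.42. The neuron and glia list had 1 of 7 genes with a row, Elavl4, detected in 5 and 1 cells. Of 8 ureteric bud genes 3 had rows, with a median sum of 1.20 in Wt1-marked and 32.0 in Sox9/Pou3f3-marked cells, of which Hoxb7 made the most, and the part of this difference in the guidance genes was not tested.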

How the data were processed

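RNA was measured in 57 cells of 1 pool. The authors deposited RPKM per gene and cell, with the number of cells above RPKM 3, a count that equalled the values in all 12087 rows. A second table holds RPKM of 787 genes in 28 cells and a signed fold between proximal and distal cells, used as a score of the authors, per the file headers. The sources used here do not state how that fold was computed or which cells were proximal. TopHat 1.4.1, DESeq and mm9 stand in the submitters' processing notes, without roles. Headers place all cells in the same sequencing run and lane.

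Cells were classed by Wt1, Sox9 and Pou3f3. Calls used the log2 ratio of class means with a pseudocount of 1 at 4-fold, the share of cells at RPKM 1 or more at 30 points, or the mean log2 difference, over all genes. A pseudocount understates folds of low genes. With 1 pool, no test was made, and exact Clopper-Pearson 95% intervals reflect only how cells were drawn from the pool. The 26 named genes were detected in at least 10 cells, listed in the authors' table, or past 4-fold with a difference of 20 points. Members, markers and lists were chosen with earlier results of these data known. Depth was estimated from 4394 genes with 1 transcript, matched by symbol to GENCODE, from the RPKM of 1 read. Amplified reads without molecular identifiers are not independent molecules. Alternatives covered pseudocount, filter, scaling, class rule, detection level and leaving out each cell. Python 3.11.15, pandas 2.3.3 and scipy 1.17.1 were used.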

Additional observations from a re-analysis of the deposited data

How the results depend on the processing

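The counts of members 4-fold apart, 10 higher and 4 lower in Wt1-marked cells, depend on low values and single cells. With a pseudocount of 10 they were 0 and 0, beside 0.521% of all genes in each direction, and the pathway lists, 10 and 2 otherwise, gave 1 and 0. With genes of mean RPKM 5 or more, 5 members and 4 list genes were higher. By the difference of mean log2(RPKM + 1), 4 members and 3 list genes were higher and 0 list genes lower. Over all genes 0.935% were higher and 1.37% lower by that measure. A marker level of RPKM 5, or classes from marker lists, gave 4 lower list genes of 71 rows, beside 5.95% and 5.88% of all genes. With detection at any value above 0, 3 members were detected in 30 points more and 2 in 30 points less of the Wt1-marked cells, against 5 and 6. Leaving out 1 cell gave 9 (without cell 13) to 12 (without cell 32) higher and 2 (without cell 52) to 5 (without cell 57) lower members, and 8 to 12 higher and 2 to 3 lower list genes. Without the cells that had Col3a1, Dcn, Flt1, Tek or Egfl7 at RPKM 5 or more, 9 members were higher and 5 lower. That setting was chosen after seeing the data. Shares over all genes are not given for it, for the filter on mean RPKM, for detection above 0 or for leaving out 1 cell. Of 26 named members 23 kept 1 sign under every setting that gave a value, the exceptions being Ephb4, Plxnb1 and Sema3f. No paired analysis was possible because all cells form 1 group.

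The data come from 1 pool and 12 cells of the smaller class, so a share of 0 there allows up to 26.5%. RPKM without counts gives no interval for the level in a cell.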
